A study of Homo sapiens with 6 samples.

Results

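The genes examined here are the nuclear genes of the mitochondrial respiratory chain and the ATP synthase, as measured in PC3 cells, an established line of androgen-independent human prostate cancer. They were chosen by symbol: NDUFA, NDUFB, NDUFC, NDUFS and NDUFV genes, SDHA to SDHD, UQCR genes and CYC1, COX4I to COX8 genes, and ATP synthase genes, pseudogenes left out and only probe sets paired with 1 symbol kept. This gave 91 of the 18376 named genes: 34 subunits of complex I, 3 of complex II, 8 of complex III, 17 of complex IV and 18 genes of complex V. The symbols also take in 10 assembly factors, which help to build a complex but are not part of it, and the noncoding gene NDUFV1-DT. DMAC2L entered by its older name ATP5S.

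Messenger RNA had been read on 6 whole-transcript arrays, 3 of PC3 cells with ectopic expression of miR-34c and 3 of PC3 cells with a scramble mimic. The sample labels and the series title name miR-34c, whereas the design text names miR-205, and the groups follow the sample labels. The sources used here give no dose, no time after delivery, and no statement on whether replicate arrays were of separate cultures. A p-value therefore measures the spread between these arrays only, and their number limits the precision. The values are log2 expression with an undescribed reference subtracted per probe set: a difference between groups can be read, but the level of one gene cannot be set against that of another. The label "respiratory chain" could therefore be checked only by gene identity, not by abundance.

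Complexes I to IV pass electrons from NADH and succinate to oxygen, and complexes I, III and IV pump protons across the inner mitochondrial membrane. The ATP synthase, complex V, uses the returning protons to make ATP. Complexes I, III, IV and V combine subunits encoded in the nucleus with subunits encoded by mitochondrial DNA. The 13 mitochondrially encoded subunits were not analysed here.

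Most of these genes differed little between the groups, and NDUFB5 stood above the rest. Of the 91 members 7 rose with miR-34c, 2 fell and 82 did not pass the test (limma, Benjamini-Hochberg adjusted p under 0.05 over all 18376 genes). Over all named genes 15.7% were called, 7.67% higher and 8.01% lower. Among the members 9.89% were called, 7.69% higher and 2.2% lower. An unadjusted p under 0.05 was found for 19 members, and for 29.2% of all named genes. The genes that rose were NDUFB5, NDUFA7 and NDUFA2 of complex I, ATP5ME of the ATP synthase, and the assembly factors NDUFAF3, NDUFAF1 and SDHAF4. Those that fell were NDUFAF6, an assembly factor, and NDUFS4 of complex I, the latter on 1 of its 2 probe sets. The count of rises depended on single arrays: leaving out the second miR-34c array or the first scramble array gave 3, and leaving out the third array of either group gave 4. The count over all genes, 2881, was then lower too, at 1683 without the second miR-34c array and 1655 without the third.

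The median log2 change of the members was 0.05, and that of all named genes -0.03. A log2 change within 0.25 of 0 was found for 79 members (86.8%), against 75.6% of all named genes. The median over the members was 0.12, 0.12 and 0.08 on miR-34c replicates 1 to 3 and 0.02, 0.14 and 0.03 on scramble replicates 1 to 3. Scramble replicate 2 thus lay above all miR-34c arrays, and the groups overlapped. Scramble replicate 2 was also the array with the highest median over all named genes (0.02, against -0.06 to -0.03 on the others). The median log2 change of the members was 0.07 without it and 0.01 without scramble replicate 1.

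**Figure D1:**
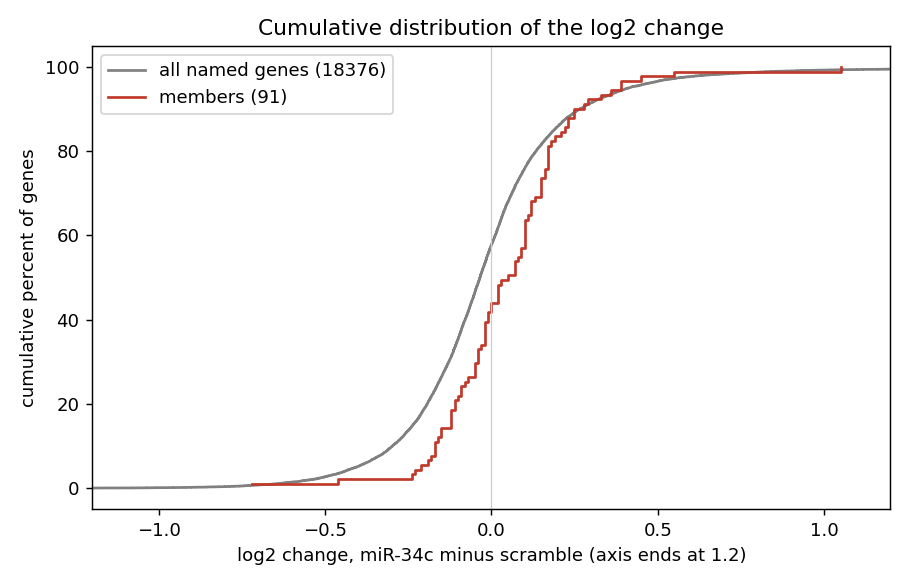
Cumulative percent of genes (vertical axis) against the log2 change, miR-34c minus scramble (horizontal axis, shown from -1.2 to 1.2), for the 91 members (red) and all 18376 named genes (grey). The red line is steeper and crosses 50% slightly to the right of 0 (median 0.05), and its last step is NDUFB5 at 1.05.

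In complex I, 3 of 34 subunits rose, 1 fell (NDUFS4, only on the probe set used) and 30 did not pass. The median log2 change was 0.09. The share called was 11.8%, below the 15.7% of all named genes. In all, 23 of the 34 had a change above 0 (67.6%, against 42.3% of all named genes). The calls numbered 2 when the first or second miR-34c array or the first scramble array was left out, and in the last case the median was 0.03.

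NDUFB5 encodes an accessory subunit of the membrane arm of complex I. Its values were 0.67, 0.73 and 0.63 on the miR-34c arrays and -0.44, -0.19 and -0.49 on the scramble arrays. The groups were far apart: the lowest miR-34c array lay well above the highest scramble array. The log2 change was 1.05 ± 0.10 (SE, n = 3 per group), a 2.07-fold rise (limma adjusted p = 0.000157). It ranked 119 among all 18376 genes by size of rise and 128 by p-value. Leaving out any 1 array kept the log2 change between 0.99 and 1.14 and the adjusted p at or below 0.00223. The exact two-sided permutation test over the 6 arrays gave p = 0.1, the smallest that 3 against 3 arrays allow.

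NDUFA7, an accessory subunit of the matrix arm, had the second largest rise among the members. It measured 0.35, 0.53 and 0.52 on the miR-34c arrays and -0.09, -0.11 and -0.06 on the scramble arrays, with no overlap. It rose 1.46-fold (log2 change 0.55 ± 0.09, SE, n = 3 per group, limma adjusted p = 0.00286), and the call was kept when any 1 array was left out. NDUFA2, a small matrix-arm subunit with a thioredoxin-like fold, had 0.01, 0.03 and -0.13 with miR-34c and -0.40, -0.29 and -0.46 with scramble. The groups did not overlap. NDUFA2 rose by 0.36 ± 0.08 (SE) on the log2 scale (limma adjusted p = 0.0155). This call was lost when the first or the second miR-34c array or the first scramble array was left out (limma adjusted p = 0.0519, 0.0689 and 0.0513).

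The genes that start beside these 3 subunits gave other values. MRPL47, which encodes a protein of the mitochondrial ribosome and is transcribed away from NDUFB5, had -0.01, -0.05 and -0.12 with miR-34c and 0.04, 0.06 and 0.01 with scramble (log2 change -0.10 ± 0.07, SE, limma adjusted p = 0.408). RPS28, a ribosomal protein gene that starts beside NDUFA7, lay between -0.01 and 0.01 on all 6 arrays (log2 change 0.00, adjusted p = 0.995). Its SD was 0.01 in each group, and whether this probe set can show a change was not tested. IK, a splicing factor gene that starts beside NDUFA2, had a log2 change of 0.11 ± 0.08 (SE, adjusted p = 0.377). None of the 3 neighbours passed the test, and the differences from the subunits were not tested. TMCO6 overlaps NDUFA2 in the RefSeq annotation. The change of TMCO6 is not given here, and whether the probes keep it apart from NDUFA2 was not tested. On the other side of NDUFB5, USP13, a deubiquitinase gene, fell by 0.41 on the log2 scale (limma adjusted p = 0.0496).

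The stretches between these starts, which hold the shared upstream sequence of each pair, are given from the RefSeq promoter table of GRCh38.p14 so that the pairs can be seen. For NDUFA2 and IK only the part on the IK side is given. All are on the minus strand, 5′ to 3′, and hold no annotated gene. Capitals mark a match to the ETS core CCGGAAGT or its reverse complement.
NDUFB5 and MRPL47, chr3:179604647-179604793: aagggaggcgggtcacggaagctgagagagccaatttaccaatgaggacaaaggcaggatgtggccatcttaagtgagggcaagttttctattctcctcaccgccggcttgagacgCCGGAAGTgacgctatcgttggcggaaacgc
NDUFA7 and RPS28, chr19:8321376-8321495: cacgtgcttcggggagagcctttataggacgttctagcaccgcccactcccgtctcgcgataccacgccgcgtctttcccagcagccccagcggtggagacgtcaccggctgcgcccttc
NDUFA2 and IK, chr5:140647733-140647828: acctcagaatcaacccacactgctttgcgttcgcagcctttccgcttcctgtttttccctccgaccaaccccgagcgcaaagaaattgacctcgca
The first stretch is 147 bases, holds 1 ETS match and is 55.1% G and C. It also holds 2 matches to CCAAT, which are not marked. The second is 120 bases long and 65.8% G and C. The third is the 96 bases, of 198 between NDUFA2 and IK, that TMCO6 does not cover. The rest, directly beside the NDUFA2 start, is not printed and was not searched in this step. Neither the second nor the third stretch, as printed, holds a match to the ETS core or to CCAAT. Whether these motifs bear on the change of any gene was not tested.

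**Figure D2:**
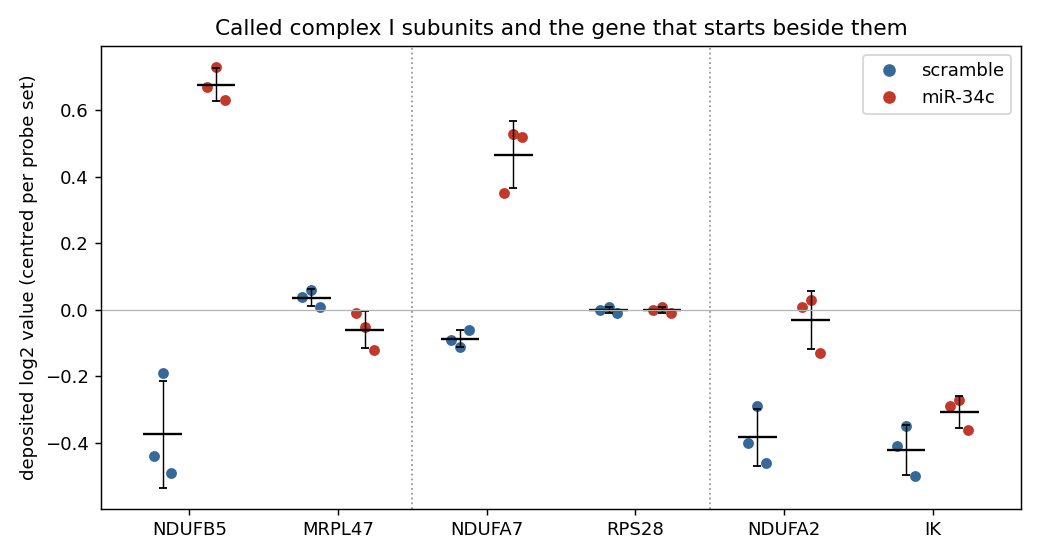
Deposited log2 values on each array (vertical axis, centred per probe set) of NDUFB5, NDUFA7 and NDUFA2 and of the gene that starts beside each, scramble in blue and miR-34c in red, with the group mean (line) and SD (bar, n = 3). The groups are apart by 1.05, 0.55 and 0.36 in the 3 subunits and by -0.10, 0.00 and 0.11 in MRPL47, RPS28 and IK.

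Promoter windows of 300 bases around the start, most of it upstream, were matched for 76 of the 91 members. NDUFB5 had no window under its own name and is not among the 76. The ETS core CCGGAAGT, a site of GABP and related factors, was present on either strand in 11 of the 76 windows (14.5%), against 4.44% of 27305 genes. The 27305 are all genes with a window, not limited to those measured or to protein-coding genes. The members are thus set against a set of another make-up. The core GCGCANGCG of nuclear respiratory factor 1 was present in 25 (32.9%, against 8.05%), and the core AANATGGCG of YY1 in 15 (19.7%, against 3.37%). The interferon-response core GAAANNGAA was found in 5 windows (6.58%, against 8.29%). The box CCAAT was about as common in the members (34.2%) as in all genes (35.7%). No motif contains another, and these are descriptions of letters, not of bound factors.

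Among the other complex I subunits, NDUFA5, an accessory subunit of the matrix arm, had the largest change that did not pass (log2 change 0.39 ± 0.14, SE, limma adjusted p = 0.0949). Its miR-34c arrays gave -0.48, -0.11 and -0.30 and its scramble arrays -0.99, -0.47 and -0.59. The groups overlapped, with miR-34c replicate 1 just below scramble replicate 2. It was called with array weights (adjusted p = 0.0242). The 6 measured core subunits, most of which carry redox centres, had log2 changes from -0.02 to 0.23. None passed, and 1 had an unadjusted p under 0.05 (15.7% and 29.2% of all named genes). NDUFS6, which binds zinc in the matrix arm, was the lowest after NDUFS4 (log2 change -0.16, adjusted p = 0.239).

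NDUFS4, an accessory subunit of the matrix arm whose loss is known from Leigh syndrome, was called lower on a probe set that lists no RefSeq transcript. That probe set gave 0.09, 0.13 and 0.16 with miR-34c and 0.57, 0.82 and 0.37 with scramble (log2 change -0.46 ± 0.12, SE, n = 3 per group, limma adjusted p = 0.0276). The groups did not overlap there. The other probe set, which lists a RefSeq transcript, gave 0.32, 0.18 and 0.26 with miR-34c and 0.11, 0.17 and -0.02 with scramble, so that the sign turned (log2 change 0.16). With that probe set NDUFS4 did not pass (adjusted p = 0.255), and no direction is taken for the gene. The call on the first probe set was also lost when all probe sets were tested (adjusted p = 0.0573) and without each array but scramble replicate 3.

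**Figure D3:**
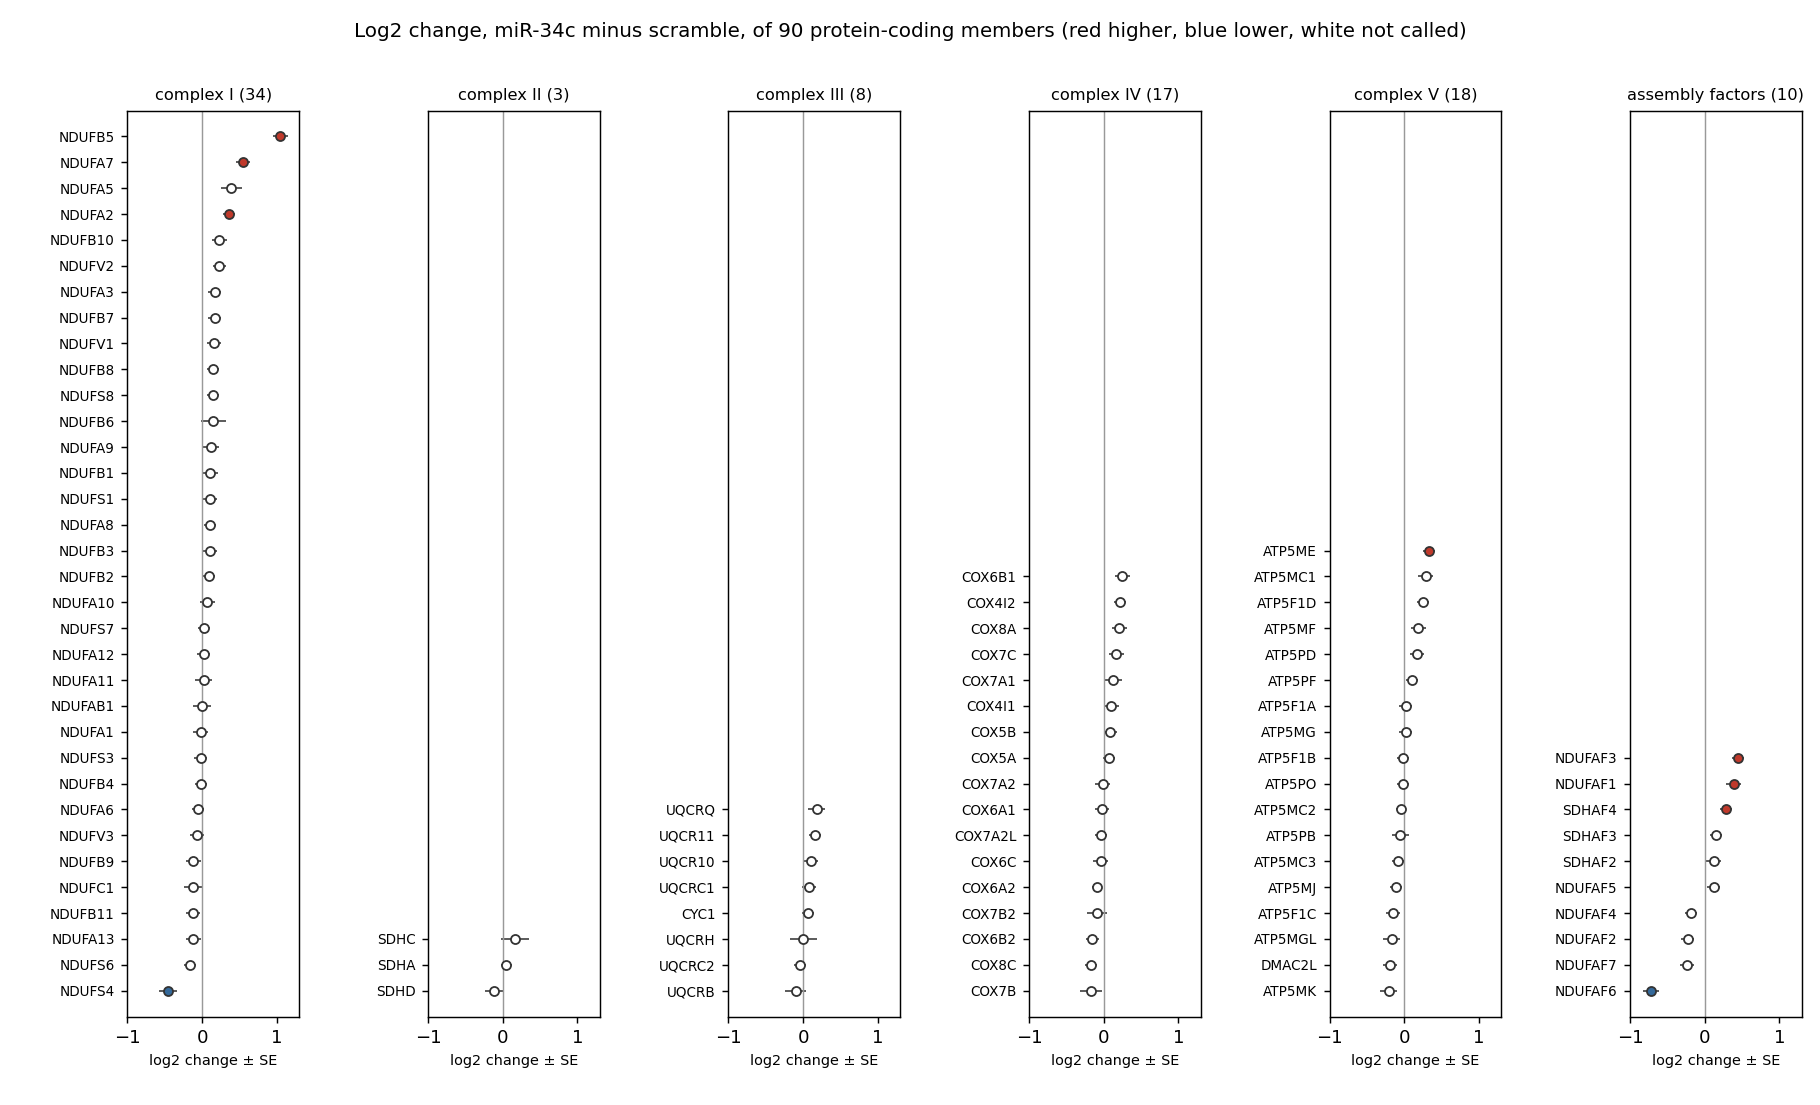
Log2 change, miR-34c minus scramble, with its SE (horizontal axis) for the 90 protein-coding members, ordered by size within each complex (panels). Red points rose, blue points fell and white points did not pass at an adjusted p of 0.05. The assembly factors spread from -0.72 (NDUFAF6) to 0.45 (NDUFAF3), whereas the points of complexes II, III and IV are all white. Of all named genes 15.7% passed.

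The assembly factors went both ways. Of the 10, 3 rose, 1 fell and 6 did not pass, or 40% called against 15.7% of all named genes. The calls numbered 2 when the second or the third miR-34c array or the first or the third scramble array was left out. NDUFAF3, which helps to build the quinone-binding module of complex I, had 0.13, 0.12 and 0.08 with miR-34c and -0.21, -0.35 and -0.46 with scramble. It rose 1.37-fold (log2 change 0.45 ± 0.08, SE, n = 3 per group, limma adjusted p = 0.00592), also without any 1 array. Its known partner NDUFAF4 had a log2 change of the other sign (-0.18, adjusted p = 0.17, chosen after its value was seen). The annotation of DALRD3 overlaps that of NDUFAF3, and whether the probes keep them apart was not tested. DALRD3 was not called (log2 change 0.09, limma adjusted p = 0.617).

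NDUFAF6, an assembly factor needed early in the building of complex I, had -0.15, -0.48 and -0.37 with miR-34c and 0.53, 0.34 and 0.29 with scramble. All miR-34c arrays were below 0 and all scramble arrays above it. It fell by 0.72 ± 0.11 (SE) on the log2 scale, a ratio of 0.607 (limma adjusted p = 0.00191), and the call was kept when any 1 array was left out. TP53INP1, a stress-response gene whose annotation lies inside that of NDUFAF6, fell too, by 0.32 on the log2 scale (adjusted p = 0.04). CCNE2, which encodes cyclin E2 and overlaps the other end of NDUFAF6, was not called (log2 change 0.37, adjusted p = 0.0905). Whether the probes keep NDUFAF6 apart from TP53INP1 and CCNE2 was not tested, so the falls of NDUFAF6 and TP53INP1 may not be separate.

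NDUFAF1, which works on the membrane arm of complex I, had 0.18, 0.35 and 0.22 with miR-34c and -0.17, 0.03 and -0.27 with scramble, without overlap. It rose 1.31-fold (limma adjusted p = 0.0235), a call lost when the second or the third miR-34c array or the first or the third scramble array was left out (adjusted p up to 0.0923). SDHAF4, which helps to assemble the catalytic subunit of complex II, had 0.00, 0.06 and 0.02 with miR-34c and -0.36, -0.14 and -0.25 with scramble. It rose 1.21-fold (limma adjusted p = 0.0407) and was called in only 1 of the 6 fits without an array, that without scramble replicate 2. The call was also lost when all probe sets were tested. NDUFAF7, a methyltransferase that acts on a complex I subunit, was not called (log2 change -0.24, adjusted p = 0.087). Its miR-34c arrays lay between -0.22 and -0.05 and its scramble arrays between 0.05 and 0.23, so the groups did not overlap. NDUFAF2, a relative of the subunit NDUFA12, had a log2 change of -0.23 (adjusted p = 0.12), and -0.05 on its other probe set.

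**Figure D4:**
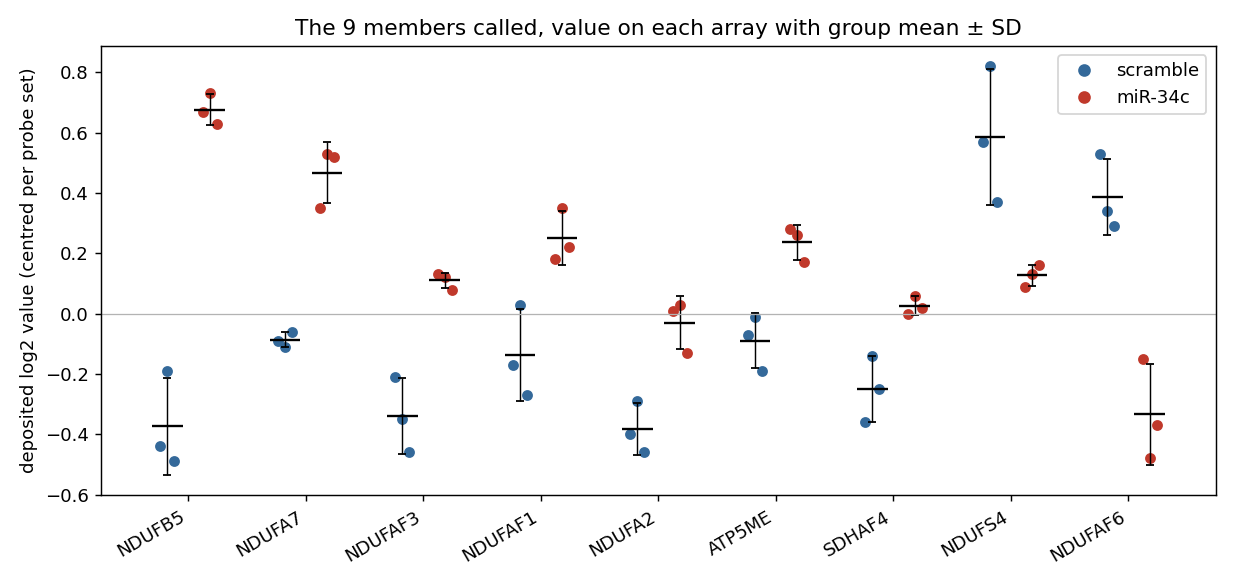
Deposited log2 values on each array (vertical axis, centred per probe set) of the 9 members called, with the group mean (line) and SD (bar, n = 3), scramble in blue and miR-34c in red. No gene has overlapping groups on the probe set shown, and NDUFB5 has the widest gap. NDUFAF6 is lower with miR-34c, and so is NDUFS4 on the probe set shown, but not on its other probe set.

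In complex II, which also serves the citric acid cycle as succinate dehydrogenase, none of the 3 subunits passed, and 0 had an unadjusted p under 0.05. The shares over all named genes were 15.7% and 29.2%, so little can be read from so few subunits. SDHA, the flavoprotein subunit, had a log2 change of 0.05. SDHC, a membrane anchor, has a pair of probe sets. The one used gave a log2 change of 0.17 ± 0.19 (SE), with scramble arrays from -0.34 to 0.55. The other gave 0.28 ± 0.07 (SE), with miR-34c arrays from -0.03 to 0.04 and scramble arrays from -0.32 to -0.25, and was called when all probe sets were tested (limma adjusted p = 0.031). The probe sets of SDHD, the other anchor, differed in sign (log2 change -0.11 for the one used and 0.10 for the other), and neither passed.

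In complex III none of the 8 subunits was called (15.7% of all named genes were). An unadjusted p under 0.05 was found for 0 of them, and for 29.2% of all named genes. The largest changes were 0.18 in UQCRQ, 0.16 in UQCR11 and 0.10 in UQCR10, which are small subunits, and the lowest was -0.10 in UQCRB. UQCRC2, a core protein, had -0.04. Of these only UQCR11 had groups that did not overlap, with miR-34c arrays from 0.06 to 0.17 and scramble arrays from -0.12 to -0.01 (adjusted p = 0.208).

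In complex IV, cytochrome c oxidase, none of the 17 genes was called (15.7% of all named genes were). An unadjusted p under 0.05 was found for 2 of them, and for 29.2% of all named genes. COX6B1, a subunit on the intermembrane side, had a log2 change of 0.25 ± 0.10 (SE, limma adjusted p = 0.137). Its miR-34c arrays gave 0.33, 0.31 and 0.28 and its scramble arrays -0.03, 0.26 and -0.07. Scramble replicate 2 came close to the miR-34c arrays, and without it COX6B1 passed (log2 change 0.36, adjusted p = 0.0238). The isoform COX4I2, known for its use in lung and under low oxygen, had a log2 change of 0.22 (adjusted p = 0.0912), and the common isoform COX4I1 0.10 (adjusted p = 0.537). The muscle isoforms COX6A2 and COX7A1 had -0.09 and 0.13, and the common COX6A1 and COX7A2 -0.02 and -0.01. The second probe set of COX6A1 gave 0.01, so its sign is not settled. COX8A, the common form of subunit 8, had 0.21, and COX8C, its testis form, -0.17, as did COX7B.

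In the ATP synthase 1 of 18 genes rose and none fell (5.56% called, against 15.7% of all named genes), with a median log2 change of -0.01. ATP5ME, a membrane subunit at the contact between synthase dimers, had 0.28, 0.26 and 0.17 with miR-34c and -0.07, -0.01 and -0.19 with scramble, without overlap. It rose 1.26-fold (log2 change 0.33 ± 0.08, SE, n = 3 per group, limma adjusted p = 0.026), but passed in only 1 of the 6 fits without an array, that without scramble replicate 2. MYL5, which lies beside ATP5ME, had a log2 change of 0.09 (adjusted p = 0.671). ATP5MC1, one of the genes of the proton-driven c-ring, had 0.48, 0.54 and 0.44 with miR-34c and 0.12, 0.34 and 0.13 with scramble (log2 change 0.29 ± 0.10, SE, adjusted p = 0.0727). It passed once the arrays were centred on their medians (adjusted p = 0.0336). ATP5F1D, of the central stalk, had 0.25 (adjusted p = 0.08). The lowest were ATP5MK, a small membrane subunit, at -0.21 and DMAC2L at -0.19. ATP5MK has a second probe set with a change of 0.15, so its sign is not settled.

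Groups that do not overlap were found in 24 members with miR-34c higher (26.4%, against 15.3% of all named genes) and in 10 with miR-34c lower (11%, against 18.9%). Of the 91 members 49 have at least 1 RefSeq pseudogene named after them, whose transcripts the probes may not keep apart, and of the 9 called members 2 have one, NDUFB5 and NDUFAF1. The 2 probe sets of NDUFB4, named here after its values were seen and with 12 such pseudogenes, read the same to 2 decimals on every array. NDUFV1-DT, the noncoding gene, had a log2 change of -0.05 (adjusted p = 0.802).

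Genes that serve the chain from outside the symbol rule were examined as lists. Of 40 measured assembly factors of other names 2 rose and 4 fell, with a median log2 change of -0.04. The share called, 15%, was about that of all named genes, 15.7%, and the calls numbered 3 without the second miR-34c array. ACAD9, which works with NDUFAF1 in building complex I, rose 1.47-fold (0.44, 0.55 and 0.52 with miR-34c, -0.13, 0.02 and -0.06 with scramble, limma adjusted p = 0.00264). ECSIT and TMEM126B of the same assembly complex, picked once their values were known, were not called (log2 changes -0.03 and -0.26). COA6, a copper-handling assembly factor of complex IV, rose 1.34-fold, and COA5, another one for complex IV, fell to 0.739 of the scramble level (adjusted p = 0.0113 and 0.00606).

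Of 23 carriers and enzymes that feed the chain 1 rose (4.35%, against 7.67% of all named genes), with a median log2 change of 0.08. It was ETFB, a subunit of the electron transfer flavoprotein, which rose 1.42-fold (adjusted p = 0.00401). Of 21 genes of the citric acid cycle and pyruvate dehydrogenase 4 rose and none fell (median log2 change 0.06). The 19% called stood against 15.7% of all named genes, and 7.67% of all named genes rose. PDK4 and PDK1, kinases that switch off pyruvate dehydrogenase, rose 1.82-fold and 1.29-fold, and IDH2, mitochondrial isocitrate dehydrogenase, rose 1.26-fold (limma adjusted p = 0.000455, 0.0211 and 0.0216). Leaving out an array gave 1 call for the first and second miR-34c arrays and the third scramble array, and 2 for each of the others. Of 25 genes of mitochondrial protein import 1 rose (4%, against 7.67% of all named genes), with a median log2 change of 0.00. It was MTX1, an outer-membrane protein, which rose by 0.57 on the log2 scale (adjusted p = 0.01). Without the second miR-34c array the import calls numbered 2.

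Of 19 regulators of mitochondrial biogenesis and mitochondrial DNA 2 fell and none rose, with a median log2 change of -0.05. The share that fell, 10.5%, was near the 8.01% of all named genes. TWNK, the mitochondrial DNA helicase, had -0.92, -0.63 and -1.04 with miR-34c and -0.18, -0.27 and -0.34 with scramble, and fell to 0.661 of the scramble level (limma adjusted p = 0.00659). TEFM, the mitochondrial transcription elongation factor, fell to 0.726 (adjusted p = 0.0323). Leaving out an array gave 1 call in each case but the third scramble array. The coactivator PPARGC1A had a log2 change of -0.26 (adjusted p = 0.0802), the packaging factor TFAM -0.21 (0.154) and NRF1 0.26 (0.0735), all 3 picked once their values were known, and none passed.

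Of 4 epithelial markers KRT8 rose, by 0.30 on the log2 scale (adjusted p = 0.0377), and 3 did not pass. For this and the marker list below, 15.7% of all named genes were called, 7.67% higher and 8.01% lower. KLK3, an androgen-driven gene known to be low in PC3 cells, had a log2 change of -0.05. Of 7 markers of leukocytes, endothelium and fibroblasts PECAM1 was called lower (log2 change -1.17, adjusted p = 0.00171), but not on the probe set that lists a RefSeq transcript (-0.30, adjusted p = 0.13). The median of these 7 markers lay between -0.10 and -0.04 on the miR-34c arrays and between -0.02 and 0.01 on the scramble arrays. Centred values do not show whether a marker is expressed, fewer cells of a type and less RNA per cell cannot be told apart, and the part of other cells in the results was not tested.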

How the data were processed

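Total RNA was hybridised to 6 Affymetrix whole-transcript arrays. Per the submitters' processing notes, the authors used RMA in Affymetrix Expression Console. The deposited log2 values lie around 0 (array medians -0.0303 to 0.0615), so a reference was subtracted per probe set in a step not given in the sources used here; the log base is that of RMA. No source used here names the genome build of the files.

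Of 28868 probe sets, 19309 are paired with 1 symbol in GEO's platform annotation. Symbols were checked by Entrez ID against RefSeq (GRCh38.p14; 19278 found, 0 changed). For the 685 genes with several probe sets, the probe set of highest mean value across the 6 arrays stood for the gene. As the values are centred per probe set, this choice does not rank the probe sets of a gene by their level. limma 3.58.1 in R 4.3.3 (lmFit, eBayes with trend, group as the only term) was run on the 18376 genes, adjusted by Benjamini-Hochberg at 0.05, and was tested on simulated data. A fold is 2 to the power of the log2 change. Promoter sequences are RefSeq's, 1 window per gene for the motif shares. The cores for NRF1, YY1 and the interferon response were shortened after longer forms had been counted.

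The members, gene lists and tests were chosen with earlier results of these data known. Genes named are every called member, up to 3 highest and 2 lowest per complex, isoform pairs, members whose probe sets differ in sign, up to 3 called genes per list, and some of the neighbours of called members. The nearest neighbours that are not named were not called. Of 169 listed genes 140 were matched. Arrays of the same group correlated at 0.80 to 0.89 over genes and those of different groups at 0.451 to 0.584, and no arrays were identical. Alternatives were the replicate block, other eBayes settings, scalings, array weights, probe set choices and leaving out each array.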

Additional observations from a re-analysis of the deposited data

Results flagged for a closer look

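A probe set shared by KCTD14 and the readthrough gene NDUFC2-KCTD14, outside the comparisons above because it has several symbols, was lower with miR-34c (log2 change -0.46 ± 0.11, SE, limma adjusted p = 0.0328 over all probe sets). It read -0.92, -0.97 and -0.63 with miR-34c and -0.41, -0.31 and -0.44 with scramble. The probe set shared by NDUFC2 and NDUFC2-KCTD14 was not called (log2 change -0.06, adjusted p = 0.744).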

How the results depend on the processing

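NDUFB5, NDUFA7, NDUFAF3 and NDUFAF6 kept their direction and call in all 15 alternative fits. Leaving out 1 array gave 1655 to 2652 called genes in all, 3 to 10 rises and 1 to 2 falls among the members, a log2 change of 0.32 to 0.41 for NDUFA2, 2 to 4 calls in complex I, 0 to 1 in complex IV, 0 to 2 in complex V and 2 to 4 among the assembly factors. It gave median log2 changes of 0.01 to 0.07 over the members, 0.03 to 0.12 in complex I and -0.03 to 0.06 in complex IV. In the lists it gave 3 to 7 calls among other assembly factors, 1 to 3 among regulators, 1 to 2 in the citric acid cycle and 1 to 2 in import. With array weights 11 members rose, and NDUFAF7 joined the falls (log2 change -0.29, limma adjusted p = 0.041). The share called was then 15.4% of the members and 19.1% of all named genes. In that fit 1 was called in complex IV, 3 in complex V, 4 regulators and 2 carriers and feeding enzymes. Quantile normalization again gave 1 call in complex IV, 2 in complex V (median 0.02), 2 carriers and feeding enzymes and 2 import genes. Centring the arrays gave 2 calls in complex V and 2 carriers and feeding enzymes. A robust prior gave 2 import genes. With subunits only, 4 rose and 1 fell. The falls among the members were 1 when all probe sets were tested, when the probe sets of a gene were averaged, and when a probe set with a RefSeq transcript was preferred. That last choice, made after seeing the data, turned NDUFS4 to 0.16 and left 0 of the leukocyte, endothelial and fibroblast markers called. Testing all probe sets left 1 regulator. The lists were run under these settings as a choice made after seeing the data. The causes were not tested.

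The replicate number as a block gave 2675 called genes, 8 rises and 2 falls among the members (NDUFA5 joined the rises, adjusted p = 0.0209), 2 import genes and 2 carriers and feeding enzymes. Deviations of same-numbered arrays correlated at -0.00507, 0.118 and -0.0852, so the numbers were not taken to pair the arrays. The signal over background of these probe sets is unknown, since the values are centred.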
